A study of Mus musculus with 4 samples.

Results

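Macrophages that carried a recorded T cell receptor were compared with macrophages that carried none, within the library from mouse mammary tumours treated with IL-12 plasmid. The members are the cells that the authors' deposited table classes as macrophages and gives a clone number, 174 of the 1702 macrophages and of the 12979 cells of that library. The other 1528 macrophages have no clone entry and are the comparison. CD45-positive immune cells were sorted alive from tumours that had been injected with a control plasmid or a plasmid encoding the cytokine IL-12 and then electroporated, with cells of 3 mice combined for each plasmid. A library of transcript 5′ ends and a separate receptor library were made from each pool. The labels disagree on the tumour: the series title names triple-negative tumours, the growth protocol names spontaneous tumours after HER2 was switched on in the mammary gland at 1 month of age, and the library names carry 4T1, a transplantable mammary carcinoma line. The labels give no strain and no genotype. The control library held 12 macrophages with a receptor and 562 without, and both libraries together hold 17211 cells. With 1 pooled library per treatment and both groups of macrophages in the same library, no test was made. The values below describe these cells, and their 95% intervals are exact and cover counting error only.

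Macrophages are phagocytes of the monocyte lineage that present antigen, clear dying cells and release chemokines. They do not rearrange T cell receptor genes. A T cell receptor pairs an alpha with a beta chain, both made by gene rearrangement in the developing T cell, and it signals through the CD3 proteins. All descendants of a T cell keep its receptor, so the receptor sequence marks a clone. In droplet sequencing a barcode stands for a droplet, which can hold a cell, a pair of attached or separate cells, engulfed material and free RNA.

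The class label was checked first against the markers of macrophages and T cells. Of the 174 cells, 154 belonged to the authors' cluster 6 and 16 to cluster 10, with 4 in other clusters. UMIs (distinct transcript molecules) of at least 3 of the 20 macrophage identity genes were present in all 154 cells of cluster 6, in the 4 others, and in 2 of the 16 cells of cluster 10. These 16 cells held a median of 1085.5 UMIs, and T cell transcripts made up 1.35% of their UMIs at the median, near the 1.42% of T cells, by which the 3355 cells of the CD8 and CD4 classes with a recorded receptor are meant throughout. Macrophage identity genes made up 0.0870% of their UMIs, against 1.88% in the cluster 6 cells. The data therefore go against the macrophage label for most of the 16 cells, and results that lead below are also given for cluster 6 alone. Cluster 10 also held 503 (32.9%) of the 1528 cells without a receptor, against 9.20% of the 174. In these 503 cells the median depth was 1269 UMIs. UMIs of at least 3 identity genes were present in 358 of them (71.2%) and in all 1017 cluster 6 cells without a receptor. Across the libraries, 87 barcodes occurred in both, 3 of them among the 174 cells, and leaving these out changed no named gene by more than its interval.

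**Figure D1:**
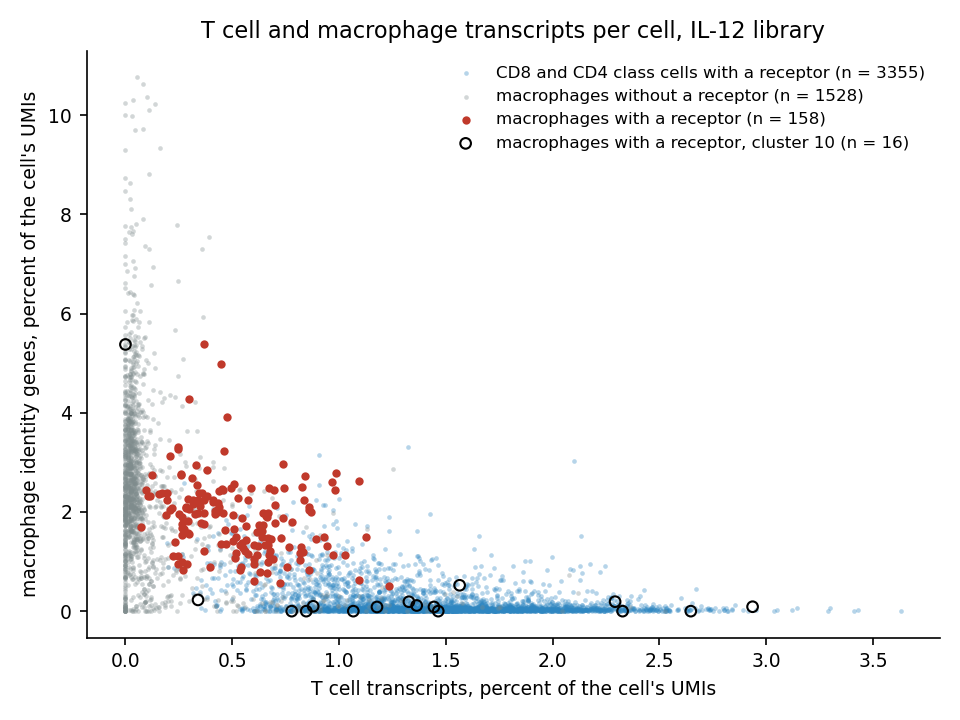
Share of each cell's UMIs from the T cell list (x axis, percent) and from the macrophage identity list (y axis, percent) in the IL-12 library, 1 point per cell. The macrophages with a receptor lie between the macrophages without one, near 0 on the x axis, and the T cells, near 0 on the y axis, while most of the 16 cluster 10 cells (open circles) lie among the T cells.

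A receptor was recorded in 10.2% of macrophages (95% interval 8.82 to 11.8). The share was 86.3% in the CD8 T cell class, 53.9% in the CD4 T cell class, 6.06% in cells called dendritic cells, 1.13% in B cells and 0.152% in neutrophils. Median depth also differed, at 7211 UMIs in macrophages and 2553 UMIs in neutrophils. In cluster 6 the share was 13.2% and in cluster 10 it was 3.08%. In the control library 2.09% of macrophages had a receptor (interval 1.08 to 3.62). Receptors were also rarer among control T cells, at 69.2% of the CD8 class and 17.9% of the CD4 class, and with 1 library per treatment the treatment and the library cannot be told apart.

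Cells with a receptor held more RNA. Their UMIs ranged from 767 to 17792 with a median of 11652.5, and those of cells without a receptor from 767 to 19308 with a median of 6379.5, so that the ranges overlap almost fully and the medians differ 1.83-fold. T cells with a receptor had a median of 5819 UMIs. The sum of the medians of macrophages without a receptor and T cells is 12198.5. Within cluster 6 the medians were 12194.5 and 8935, a ratio of 1.36, and the same sum is 14754, and in the control library 10942 and 5313, a ratio of 2.06. With macrophages cut into 5 equal groups by depth, from the shallowest to the deepest, a receptor was recorded in 4.41%, 1.17%, 6.47%, 13.2% and 25.8% of cells. No cell of either library exceeded 19603 UMIs. No doublet caller was run, and no source read here says whether doublets were removed before deposit. A barcode of 2 cells and 1 cell holding RNA of both kinds cannot be told apart in these files.

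**Figure D2:**
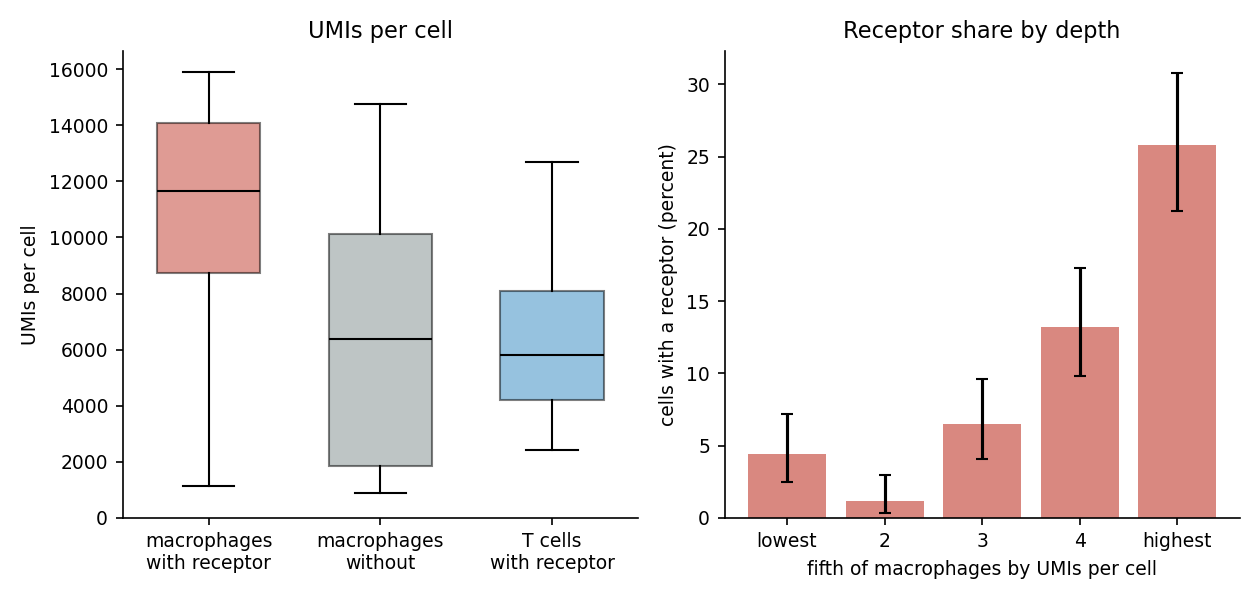
Left, UMIs per cell in macrophages with and without a receptor and in T cells with one (box, quartiles and median; whiskers, percentiles 5 and 95). Right, percent of macrophages with a receptor in each of 5 equal groups by UMIs per cell, with exact 95% intervals, which is 25.8% in the deepest group.

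T cell transcripts showed the largest increases in the cells with a receptor, which were chosen by a recorded T cell receptor. A UMI of Cd3d, Cd3e or Cd3g, the signalling chains of the receptor complex, was present in 171 of the 174 cells (98.3%), against 413 of 1528 macrophages without a receptor (27.0%), 3347 of 3355 T cells and 20.2% of neutrophils, a cell type that should lack them. Because the cells differ in depth, each was also thinned to 2000 UMIs, which left out 16 cells with and 398 without a receptor. The shares were then 81.6% with, 11.9% without, 98.9% in T cells and 13.7% in neutrophils, so the share in macrophages without a receptor was at the neutrophil level. Cd3e, which marks T cells, had a UMI in 92.5% of cells with and 13.2% without a receptor, or 46.2% and 5.31% after thinning, where neutrophils had 4.75%.

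The summed level of Cd3e was 402 CPM (UMIs per 1000000) in macrophages with a receptor, 37.0 CPM in those without and 1138 CPM in T cells, a 10.9-fold excess over macrophages without (interval 9.59 to 12.3). Cd3g was at 581, 42.7 and 1776 CPM in the same order. The CD8 coreceptor chains followed, with Cd8a at 263, 26.8 and 883 CPM and Cd8b1 at 329, 26.9 and 962 CPM. In each of these genes the macrophages with a receptor stood between the other groups. Cd4, the coreceptor of helper and regulatory T cells, had 35 UMIs in 19 cells with a receptor and 12 UMIs in 12 cells without. Trac, the constant part of the alpha chain, was at 85.1, 9.03 and 193 CPM, but it belongs to the receptor by which the cells were chosen. The table used here has no row for Trbc1 or Trbc2.

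Of 6878 genes with at least 50 UMIs and a UMI in at least 5% of either group, 955 (13.9%) were at least 1.5-fold higher in cells with a receptor and 341 (4.96%) at least 1.5-fold lower, and the median log2 ratio was 0.08. In cluster 6 alone these numbers were 956 and 449 of 6856. To separate T cell transcripts from macrophage genes, genes were split by their level in T cells with a receptor against macrophages without one. Of the 300 genes at least 4-fold higher in T cells, 296 were higher in the macrophages with a receptor, 1 was lower (Ngp, a neutrophil granule gene), and the median log2 ratio was 1.69. Of the 599 genes at least 4-fold lower in T cells, called macrophage genes here, 3 were higher (Ccl2, Serpinb2 and Plpp3), 166 were lower and the median was -0.42. The remaining 5979 shared genes had 656 higher, 174 lower and a median of 0.10. The split uses the level in macrophages without a receptor, which is also the base of the comparison, so these counts are a description.

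By the lists of known genes the same order held. All 28 of the T cell list members with at least 20 UMIs were at least 1.5-fold higher, where 15.3% of the 8732 genes of that depth were higher and 8.76% lower. These shares of all genes also stand beside every list count given below. Trat1 had fewer UMIs and a further list gene is not in the table. The median over the 26 measured members was 2.89, with Lck and Zap70, kinases of receptor signalling, at 147 against 18.7 CPM and 60.4 against 7.84 CPM. Of the cytotoxic effectors 14 of 14 were higher, with a median of 2.93. The list includes Nkg7, a protein of cytotoxic granules, at 1136 against 86.7 CPM, the granzyme Gzmb at 325 against 36.1 CPM, perforin (Prf1), with 169 UMIs in the 174 cells and 121 UMIs in the other 1528, and the chemokine Ccl5 at 3075 against 640 CPM. Of the exhaustion list 8 of 12 were higher, among them the inhibitory receptors Pdcd1 at 254 against 23.8 CPM, Lag3 at 273 against 26.1 CPM and Tigit at 88.8 against 7.24 CPM. The 4 within 1.5-fold include Havcr2, a checkpoint receptor that macrophages also express, at 89.3 against 105 CPM.

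The 10 measured genes with the largest log2 ratios were all T cell genes by the 4-fold split. Tnfsf8 (CD30 ligand) led with 49 UMIs in 9 cells against 6 UMIs, a log2 ratio of 4.07, and 1 cell held 38.8% of its UMIs. Gzmk (4.01), Gzme (3.96), Calca (3.94), Cd3g (3.74), Nkg7 (3.70), Cxcr6 (3.66), Cd8b1 (3.56), Gzmd (3.52) and Tigit (3.45) followed. Cxcr6, a homing receptor of tissue T cells, was at 290 CPM in 134 cells against 22.0 CPM. Gzme and Gzmd each lay in few cells, 9 and 11 of the 174. Among shared genes the largest were Il1rl1 (1.65), the IL-33 receptor, Wrap53 (1.65), Arntl (1.64), Ttll12 (1.60) and H2-Bl (1.58), each with 21 to 29 UMIs in the cells with a receptor.

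A mix was then computed to set the macrophage genes against. The summed T cell list stood at 5165 CPM with a receptor, 726 CPM without and 14011 CPM in T cells, which places the cells with a receptor at a weight of 33.4% T cell profile and the rest macrophage profile (interval 32.6 to 34.2). Other gene groups gave similar weights: 33.8% from the cytotoxic list and 35.4% from the exhaustion list. The decrease of the macrophage identity list, which the weight did not use, corresponds to 36.4%. Trac gave 41.4% (interval 34.5 to 49.1). Cluster 6 alone gave 33.0%. From cell to cell the weight varied widely, with percentiles 5, 50 and 95 at 9.16%, 34.4% and 89.8%. Among macrophages without a receptor, 102 (6.68%) reached the median T cell list share of those with one, so the comparison group also holds cells with many T cell transcripts.

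Beside this mix, 6555 of the 6878 measured genes lay within 1.5-fold, with 148 (2.15%) above it and 175 (2.54%) below. With no mix, 5582 of the 6878 already lay within 1.5-fold of macrophages without a receptor. Of the 599 macrophage genes 543 lay within 1.5-fold, 32 above and 24 below, with a median log2 difference from the mix of 0.06. With no mix, 430 of the 599 lay within 1.5-fold of macrophages without a receptor. The share of macrophage genes within 1.5-fold of the mix was 90.7%. It was 72.3% for clones recorded in no T cell, where 112 genes lay below the mix. In the control library it was 47.1%, where 265 lay below the mix, and in cluster 10 it was 5.97%. For each of these settings the weight was computed anew, at 20.7%, 31.5% and 101% in that order. The measured macrophage genes numbered 595, 645 and 134. In cluster 10 the weight was capped, so those cells were set against the T cell profile alone. These settings rest on 48, 12 and 16 cells with a receptor in that order, and so on fewer UMIs. The part of counting error in their lower shares was not tested. Of the 300 T cell genes 280 lay within 1.5-fold of the mix with 33.4% T cell profile. The weight was set by the T cell list, whose members therefore lie on the mix by construction on the whole, and the T cell profile itself holds other RNA: 45.2% of T cells had UMIs of at least 3 macrophage markers.

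**Figure D3:**
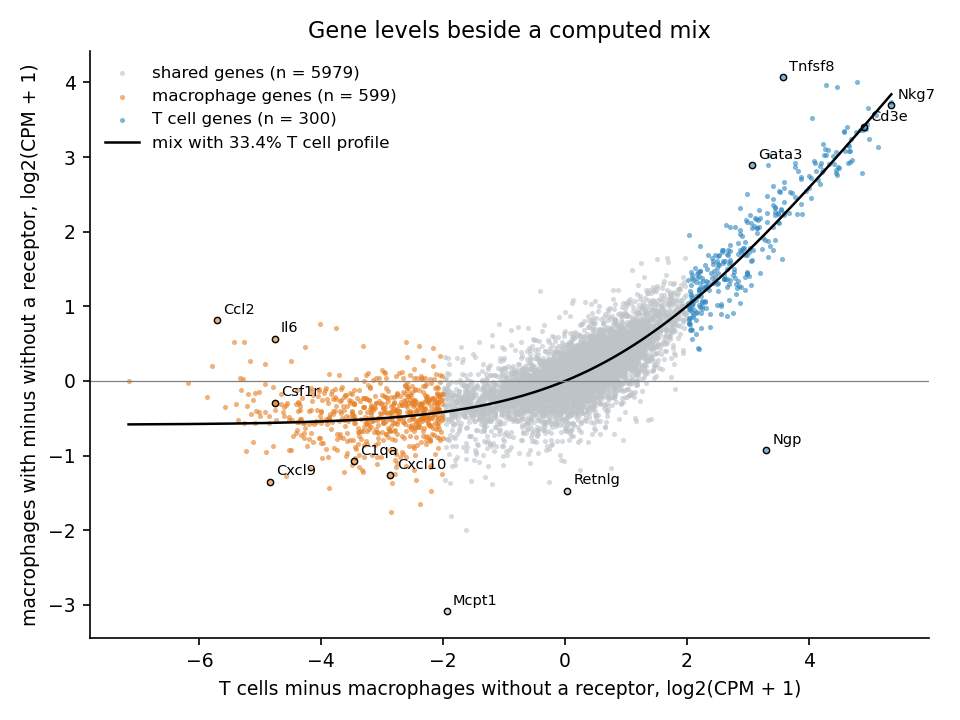
Log2(CPM + 1) difference between macrophages with and without a receptor (y axis) against that between T cells and macrophages without a receptor (x axis), 1 point per measured gene, coloured by the 4-fold split. The black line is a mix with 33.4% T cell profile, drawn without the pseudocount. Most genes lie along it, while Ccl2 and Il6 lie above it and Cxcl9, Cxcl10 and C1qa below it.

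Macrophage identity genes were lower in the cells with a receptor, by about the amount of the mix. Of the 20 genes 10 were at least 1.5-fold lower, none higher, and the median log2 ratio was -0.65 (cluster 6, -0.62), or -0.13 against the mix. Csf1r, the receptor of the macrophage growth factor, was at 176 CPM with and 215 CPM without a receptor, where the mix has 146 CPM. The complement genes were lower: C1qa at 519 against 1096 CPM (2.11-fold, interval 1.98 to 2.26) with 763 CPM in the mix, C1qb at 446 against 912 CPM and C1qc at 451 against 884 CPM. Lysozyme (Lyz2) was at 2156 against 4152 CPM, and Adgre1, which encodes the F4/80 antigen, at 15.2 against 36.9 CPM in 29 and 372 UMIs. Thus Csf1r was above the mix and the complement genes below it, and only Adgre1 and Pf4 of the 20 genes differed from the mix by more than 1.5-fold. Pf4, a chemokine, was at 52.0 CPM with a receptor and 81.0 CPM in the mix, and 1 cell held 82.8% of those UMIs.

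Genes of uptake and digestion were lower in fewer cases than the identity genes. Of all genes with at least 20 UMIs 8.76% were lower. Of the efferocytosis and scavenging list, which covers receptors for dying cells, 2 of 16 members were lower and none higher, with a median log2 ratio of -0.40 over 14 measured genes and 0.09 against the mix. Axl, a receptor that binds apoptotic cells, was at 27.3 against 48.0 CPM, and Mertk, its relative, had 10 UMIs against 73. Of the lysosome list 4 of 18 were lower, with a median of -0.49, and -0.01 against the mix. Lamp1, a membrane protein of lysosomes, was at 384 against 542 CPM with 396 CPM in the mix. Each list had 1 member more than 1.5-fold above the mix and none below it.

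Antigen presentation divided by class. The MHC class II list had 1 of 9 members lower, the transactivator Ciita (7.36 against 17.6 CPM, 14 UMIs with a receptor), and a median of -0.47. H2-Aa was at 4918 against 6804 CPM with 4601 CPM in the mix, and Cd74, the invariant chain, at 12094 against 16759 CPM with 11352 CPM in the mix. The log2 differences of H2-Aa and Cd74 from the mix were 0.10 and 0.09. Of the class II list 2 members lay more than 1.5-fold below the mix and none above it. All 11 MHC class I genes, which T cells also express, were within 1.5-fold with a median of 0.20. Of the costimulation and checkpoint ligands Cd40 was lower, at 51.5 against 91.5 CPM, and Cd274 (PD-L1) was at 295 against 322 CPM.

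Of the chemokines that attract T cells 4 of 8 were lower and none higher, with a median log2 ratio of -0.52. Those that act through the receptor CXCR3 were lower than in macrophages without a receptor and lower than the mix. Cxcl9 was at 84.6 against 217 CPM (2.56-fold, interval 2.18 to 3.03), with 147 CPM in the mix. Cxcl10 was at 59.9 against 145 CPM and Cxcl11 at 23.6 against 65.6 CPM, with 103 and 44.9 CPM in the mix. In cluster 6 alone the log2 ratios of these genes were -1.34, -1.30 and -1.41. A single cell, picked for each gene, held 25.5% of the Cxcl9 and 45.6% of the Cxcl10 UMIs of the cells with a receptor. Without that cell the log2 ratios were -1.76 and -2.11. Without the comparison cell with the most UMIs of the gene they were -1.29 and -1.17. After thinning to 2000 UMIs, Cxcl9 had a UMI in 10.1% of cells with and 17.2% without a receptor, although at full depth the shares were 20.1% and 21.7%. Of the wider interferon-gamma response list, however, 18 of 21 members were within 1.5-fold, and the 3 lower ones were these chemokines. Gbp2, an interferon-induced GTPase, was at 305 against 333 CPM. Of the type I interferon response 14 of 14 members were within 1.5-fold.

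Among macrophage genes the 10 lowest were Fgd2 (-1.75), Pde1b (-1.65), Prxl2b (-1.47), Cxcl11 (-1.43), Zmynd15 (-1.36), Cxcl9 (-1.35), Shtn1 (-1.32), Slamf8 (-1.27), Cxcl10 (-1.26) and Rnase6 (-1.25), as log2 ratios. Fgd2 and Pde1b rest on 5 UMIs each in the cells with a receptor. Slamf8, a surface receptor of activated macrophages, had 38 UMIs in 23 cells against 500 UMIs. All 10 stayed lower in cluster 6 alone, which holds 154 of the 174 cells with a receptor and so is no separate check.

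The 10 highest macrophage genes were Ccl2 (0.81), Serpinb2 (0.77), Plpp3 (0.71), Il6 (0.57), Chil3 (0.53), Timp1 (0.53), Tlr7 (0.52), Hbegf (0.47), Rassf8 (0.47) and Cxcl1 (0.45). Ccl2, which attracts monocytes, was at 649 CPM in 50 cells against 369 CPM without a receptor and 248 CPM in the mix. Many of these genes were concentrated in single cells. One cell held 32.5% of the Ccl2 UMIs, and without it the log2 ratio was 0.26. The same held for Serpinb2, a protease inhibitor, with 42.6% of its UMIs in 1 of 9 cells and a log2 ratio of -0.01 without it, and for Chil3, a chitinase-like protein of alternatively activated macrophages, with 66.3% in 1 cell and -1.02 without it. Il6 went from 0.57 to 0.21 and Hbegf from 0.47 to -0.04. Cxcl1, a neutrophil attractant, was spread over 95 cells, at 1649 against 1205 CPM (1.37-fold, interval 1.32 to 1.42) with 823 CPM in the mix. In the control library the direction was the opposite, at 239 CPM with and 784 CPM without a receptor.

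Activation genes otherwise differed little from those of macrophages without a receptor. The median log2 ratio was -0.05 for the classical and -0.34 for the alternative activation list. Against the mix these medians were 0.43 and 0.23, and that of the monocyte list was 0.23. More than 1.5-fold from the mix, the classical list had 1 gene above and 1 below. The alternative list had 1 and 2, and the monocyte list 1 and 0. Of the classical activation list 1 of 9 was lower, Il23a, with 14 UMIs in 6 cells against 288 UMIs. Il1b was at 5842 against 6038 CPM, Tnf at 267 against 238 CPM and Nos2, inducible nitric oxide synthase, at 56.2 against 82.2 CPM. Of the alternative activation list 3 of 10 were lower, among them Retnla at 27.3 against 63.2 CPM, and arginase (Arg1) was at 895 against 1075 CPM. Of the monocyte list 1 of 10 was lower. Of the adhesion list 3 of 9 were higher and 2 lower. Selplg, a ligand of selectins, was at 419 against 151 CPM with 824 CPM in T cells, and Vcam1, an integrin ligand, at 12.6 against 24.8 CPM. Of the proliferation list 6 of 14 were higher, with a median log2 ratio of 0.66, but the median was -0.31 for clones recorded in no T cell, -0.39 in cluster 10 and -0.44 in the control library. Among the 6 was Top2a, a topoisomerase of dividing cells, at 29.9 against 9.52 CPM with 26.3 CPM in the mix and 59.6 CPM in T cells.

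Several of the lowest genes of all mark other cell types. Mcpt1 and Mcpt2, mast cell proteases, had log2 ratios of -3.08 and -1.99, but 37.7% and 33.2% of their UMIs in macrophages without a receptor lay in 1 cell each, and in cluster 6 alone the ratios were -0.98 and -0.41. The 4 haemoglobin genes had no UMI in cells with a receptor and summed to 1314 CPM in those without. Retnlg, a neutrophil gene, was at 55.7 against 156 CPM, and 8 of the 12 neutrophil markers were lower and none higher, with S100a8 at 2155 against 3492 CPM. All 6 mast cell and basophil markers were lower, summing to 22.6 against 168 CPM, and Mcpt4 and Cma1 had no UMI in cells with a receptor. Of the B cell markers 2 of 3 were lower, Cd79a and Cd79b, with no UMI in cells with a receptor. Dendritic cell markers had 2 of 9 lower and epithelial markers 4 of 5 lower. Of the natural killer cell markers 3 of 4 were higher, Klre1, Eomes and Klri2, and T cells had more of each. The 9 mitochondrial genes were within 1.5-fold, and of the dissociation stress genes 2 of 12 were lower. The part of these cells in the other differences was not tested. Ccnd1 (-1.80), Vkorc1 (-1.38) and Zcchc24 (-1.36), shared genes on 8, 11 and 5 UMIs, were also among the 10 lowest, with Fgd2, Pde1b, Prxl2b and Cxcl11.

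The receptors belonged to 79 clones, 66 of them seen in 1 macrophage each. Of these clones 31 were also recorded in T cells, which is 39.2% of the macrophage clones and 4.38% of the 707 clones of T cells. They accounted for 126 of the 174 cells (72.4%, interval 65.1 to 78.9). Counting a shared alpha or beta chain in place of the whole clone gave 136 cells (78.2%), and CD8 class cells alone gave 124 (71.3%). In 122 cells the clone had more CD8 class than CD4 class members. None of the 174 receptors was found in the control library, which allows a share of up to 1.72% by a limit of 3 counts.

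The 2 largest T cell clones were also the 2 largest here. Clone 1 was recorded in 24 macrophages (13.8% of the receptors, interval 9.04 to 19.8) and 638 T cells (19.0%). Clone 2 had 21 macrophages (12.1%, interval 7.63 to 17.9) and 645 T cells (19.2%, interval 17.9 to 20.6). Clone 4 had 14 and 269 cells, clone 5 had 13 and 112, and clones 3 and 7 had 9 macrophages each with 271 and 77 T cells. Clone 6 had 96 T cells (2.86%) but only 2 macrophages (1.15%, interval 0.140 to 4.09), fewer than clones 19 and 20, which had 3 macrophages each and 11 and 10 T cells. Clones 1 and 2 together made up 25.9% of macrophage receptors and 38.2% of T cell receptors, and the intervals do not overlap (19.5 to 33.0 and 36.6 to 39.9). The 5 largest clones, with clone 3 taken before clone 7 at equal macrophage number, made up 46.6% and 57.7%. Clone 7 has fewer T cells than clone 3, so the T cell share depends on that choice. Clone 5 went the other way, at 7.47% of macrophage (interval 4.04 to 12.4) and 3.34% of T cell receptors, and the intervals do not overlap. All these shares go by clone number, and clone 5 shares a beta chain with clone 2. Clones 7 and 8 each share a chain with clone 1, so neither gap is shown for receptors joined by chain.

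**Figure D4:**
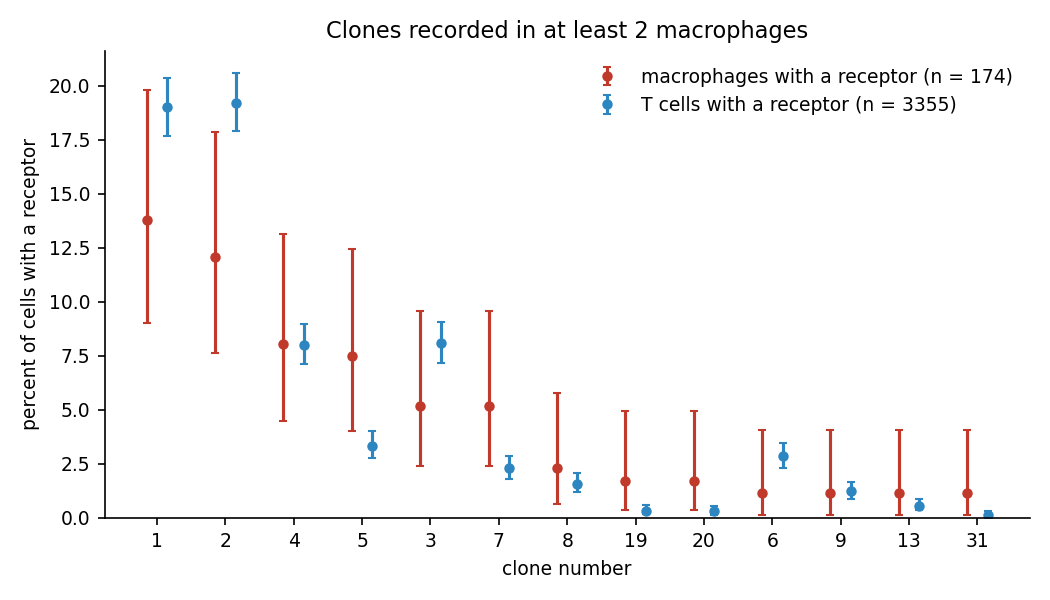
Percent of cells with a receptor that carried each clone recorded in at least 2 macrophages, for macrophages and for T cells of the IL-12 library, with exact 95% intervals. Clones 1 and 2 lead in both, and clone 5 has 7.47% of macrophage and 3.34% of T cell receptors.

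Clone numbers do not always mark separate receptors. Clone 5 was recorded with a beta chain only, the same as that of clone 2, and clone 7 with an alpha chain only, the same as that of clone 1. Clone 8 was recorded with a beta chain only, the same as that of clone 1, and clones 2 and 3 share an alpha chain. Like clone 5, clones 7 and 8 had a larger share of macrophage than of T cell receptors, though with overlapping intervals. The shares were 5.17% and 2.30% for clone 7, and 2.30% and 1.58% for clone 8. Joining clones 5, 7 and 8 to clones 1 and 2 by these chains would narrow the difference given above for clones 1 and 2. The joined shares were not computed. The intervals that do not overlap, for clones 1 and 2 and for clone 5, hold for clone numbers only. Both chains were recorded in 63.8% of macrophages with a receptor (interval 56.2 to 70.9) and in 81.7% of T cells (interval 80.4 to 83.0). At least 2 beta chains were recorded in 4 macrophages (2.30%) and in 4.74% of T cells. In each of the 7 largest clones the macrophages carried T cell list genes at a lower share of UMIs than the T cells of the clone. In clone 1 the medians were 0.732% and 1.63%, and in clone 5 they were 0.472% and 1.41%. A further deposited table of receptor-positive cells, which the authors restricted to CD3 cells, lists 3310 cells of this library, 3306 of them T cells, and so leaves out the 174 macrophages.

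The 48 macrophages whose clone was recorded in no T cell carried other T cell transcripts than the 126 whose clone was. This split and its genes were chosen after values had been seen. The split goes by clone number. By a shared chain 136 of the 174 cells match a T cell, so some of the 48 share a chain with a T cell. Cd4 was at 49.3 CPM (27 UMIs in 14 cells) against 5.90 CPM (8 UMIs in 5 cells), an 8.36-fold difference (interval 3.69 to 21.3). Foxp3, the transcription factor of regulatory T cells, had 20 UMIs in 6 cells against 2 UMIs in 1 cell, or 36.5 against 1.48 CPM. Gata3, a transcription factor of type 2 helper and some regulatory T cells, was 5.23-fold higher (interval 3.25 to 8.60), but 1 cell held 28 of the 57 UMIs and without it the difference was 2.72-fold (interval 1.56 to 4.78). Tnfrsf4 (OX40), a costimulatory receptor, was 7.09-fold higher (interval 4.30 to 12.1). Il1rl1 had 28 UMIs in 8 cells against 1 UMI, and Tnfsf8 had 47 UMIs in 8 cells, 19 of them in 1 cell, against 2 UMIs. Of the 48 cells 16 had a UMI of Foxp3, Il1rl1 or Tnfsf8, against 3 of the 126.

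Several genes of cytotoxic T cells showed the reverse. Cd8a was 5.37-fold higher in the cells whose clone was in T cells (interval 3.80 to 7.80), Lag3 6.58-fold (interval 4.55 to 9.86) and Ifng 9.13-fold (interval 3.80 to 28.7). Prf1 had 168 UMIs in these cells and 1 UMI in the other 48. Gzme had 128 UMIs in 9 of these cells and none in the other 48, at least 17.2-fold higher against a floor of 3 UMIs over the group. Gzmk went the other way, at 85.8 CPM in the 48 cells and 51.6 CPM in the 126 (1.66-fold, interval 1.12 to 2.44), but at 62.0 CPM in the 48 without the cell with the most UMIs, where the interval of the ratio (0.768 to 1.84) includes no difference. A UMI of Cd8a or Cd8b1 without Cd4 was found in 114 of the 126 cells and in 16 of the 48, and Cd4 without either CD8 chain in 1 and 13. Of the macrophage genes, Csf1r was at 164 CPM in the 48 cells and 181 CPM in the 126, and Lyz2 at 2415 and 2051 CPM. C1qa was at 438 and 552 CPM, but 1 of the 48 cells held 107 of their 240 UMIs, and without it C1qa was at 248 CPM there. Cxcl9 was at 45.7 and 100 CPM, and at 70.7 CPM in the 126 without the cell with the most UMIs.

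T cells split by the size of their clone differed in the same genes. In the 579 T cells of clones seen in 1 T cell, Cd4 was at 86.6 CPM and Foxp3 at 91.3 CPM. In the 2438 T cells of clones with at least 10 T cells they were at 3.21 and 0.432 CPM. Prf1 was at 55.1 and 338 CPM in the same order. The macrophages of clones in no T cell carried fewer T cell transcripts, with a median T cell weight of 19.6% against 40.4% and Cd3e at 236 against 469 CPM, although their median depth was alike at 12247.5 and 11603.5 UMIs. In cluster 6 alone Cd4 was 7.15-fold higher (interval 3.11 to 18.4) in the 44 cells of clones in no T cell, Gata3 was 5.13-fold higher, and Foxp3 had 20 UMIs against 2 in the other 110 cells.

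**Figure D5:**
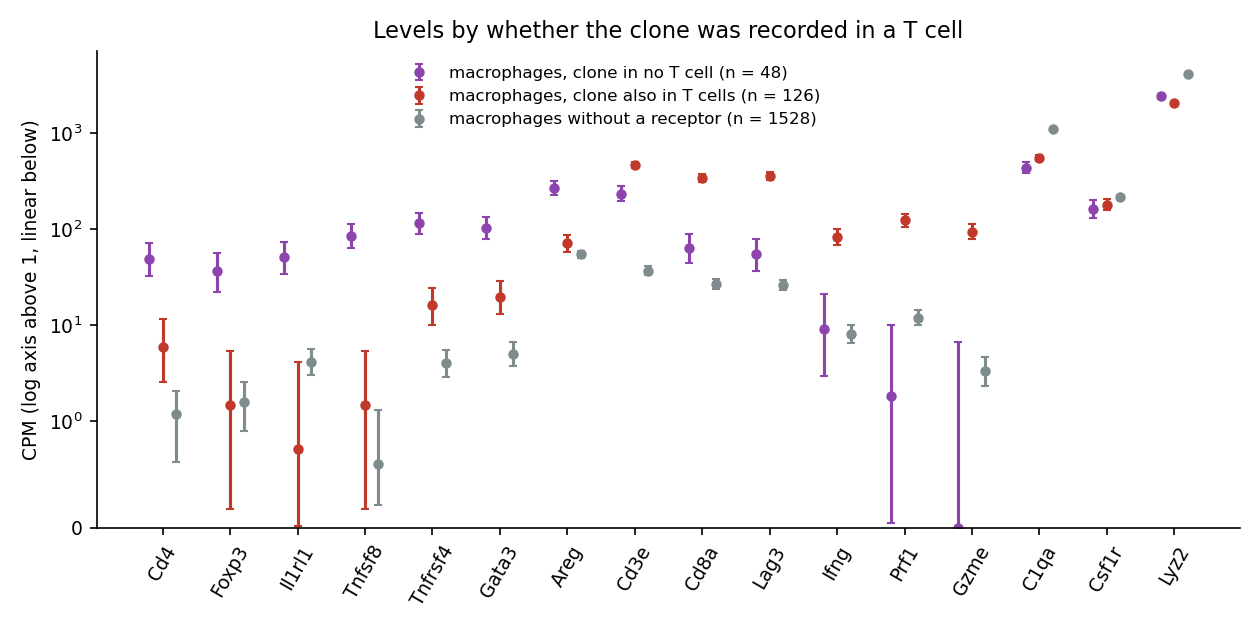
Summed level (CPM, log axis above 1 and linear below) of T cell and macrophage genes in macrophages whose clone was recorded in no T cell, in macrophages whose clone was also in T cells, and in macrophages without a receptor, with exact Poisson 95% intervals. Cd4, Foxp3 and Gata3 are higher in the first group and Cd8a, Lag3 and Prf1 in the second, while Csf1r is at 164, 181 and 215 CPM.

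The control library gave a smaller example of the same comparison. All 12 macrophages with a receptor belonged to cluster 6 and had a UMI of a Cd3 gene, against 13.9% of the 562 without a receptor. They held 11 clones, and the clones of 3 cells were also recorded in control T cells. Cd3e was at 253 CPM with and 12.6 CPM without a receptor, from 35 and 44 UMIs, Csf1r at 239 and 306 CPM and C1qa at 810 and 1475 CPM. The T cell weight was 31.5%. Cxcl9 rests on 4 UMIs in the 12 cells and Cxcl10 and Cxcl11 on none, and several genes that were higher in the IL-12 library were lower there. Ccl2 was at 333 against 469 CPM, Cxcl1 at 239 against 784 CPM and Hbegf at 43.4 against 138 CPM, and Il6 had no UMI in the 12 cells against 383 UMIs.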

How the data were processed

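Both deposited expression tables list 11407 genes per cell beside the authors' cluster, class and clone number. The authors scaled each cell's UMI counts to 1000000 and took log2 of the value plus 1 before deposit, as the deposited values themselves show. Cell Ranger 2.1.0, STAR 2.6.1, Partek and mm10 are named in the submitters' processing notes, without roles. Undoing the logarithm gave each cell's UMIs, whole within 0.1 for all but 13 of 13883686 IL-12 and 6 of 4251108 control values. IL-12 cells held 766 to 19603 UMIs and control cells 655 to 19573.

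Levels are a group's summed UMIs per 1000000, and 1 CPM was added to both levels before each log2 ratio. Both groups of macrophages come from 1 library, so cells are not replicates and no p-value was made. Intervals are exact binomial or exact Poisson at 95%, cover counting error only and leave out cell-to-cell spread. Genes were named as the 10 highest and 10 lowest among measured and among macrophage genes, 5 each way among shared genes, up to 6 per list, and a fixed set that includes Cd3e, Csf1r and Cxcl9. Receptor, immunoglobulin, mitochondrial and ribosomal genes were left out of the ranks. The 28 gene lists and the members were chosen with earlier results of these data known, and other genes named per list were chosen after their values were seen. The scripts were tested on simulated data. Python 3.11.15, numpy 2.4.6, scipy 1.17.1 and pandas 2.3.3 were used. Some single genes are not reported here.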

Additional observations from a re-analysis of the deposited data

How the results depend on the processing

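No paired analysis was possible because both groups are cells of 1 library and carry no replicate numbers. For the 955 higher genes, the count was 473 with a pseudocount of 10 CPM, 523 after thinning to 2000 UMIs, 504 in cluster 10 and 378 at 2-fold. For the 341 lower genes, it was 140 with a pseudocount of 10 CPM, 548 by the mean of per-cell CPM, 707 in cluster 10, 1501 in the control library, 765 at 20 UMIs with no minimum share of cells, 60 at 2-fold and 773 for clones in no T cell, a setting chosen after seeing the data. Fewer cells or UMIs enter the cluster 10 and control values.

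The median of the T cell list was 2.24 with a pseudocount of 10 CPM, 2.29 by the mean of per-cell CPM, 3.26 with depth weighting, 4.18 against cells without a Cd3 UMI, 4.31 in control and 2.41 for clones in no T cell. That of macrophage identity was -2.89 in cluster 10 and -0.50 in control. The T cell weight was 29.9% with cluster 5 as the T cell reference, 41.4% from Trac and 38.6% with the reference weighted to the macrophages' clones. A 2-fold split gave 737 higher T cell genes. The receptor share was 13.2% in cluster 6, 3.08% in cluster 10, 12.3% in cells of at least 2000 UMIs, 2.09% in control, and 0 for receptors also in the receptor cell table, which by its construction lists CD3 cells. The ratio of median UMIs was 1.36 in cluster 6, 2.06 in control, 0.855 in cluster 10 and 0.175 for the 3 receptor cells without a Cd3 UMI, for which gene levels were not computed.

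Among macrophage genes, of which 166 were lower and 24 below the mix, 388 were lower and 265 below it in control, 112 were below it for clones in no T cell, and 4 with a pseudocount of 10 CPM. The mix was computed anew for control and for clones in no T cell. Named genes past 1.5-fold that changed sign were Ccl2 (-0.49), H2ac8 (-0.00050) and Prxl2b (0.52) among those with enough UMIs in control, H2ac8 (-2.56) for clones in no T cell, and Serpinb2 (-0.0072) without 1 cell. Genes within 1.5-fold also changed sign, such as Cxcl1 (-1.71), Hbegf (-1.65) and Il6 (-6.79, from 0 UMIs) in control and Chil3 (-1.02) and Hbegf (-0.04) without 1 cell. The proliferation median was -0.39 in cluster 10, -0.44 in control and -0.31 for clones in no T cell. The cause was not tested. Cluster 6 holds 154 of the 174 cells with a receptor. In that cluster alone 56 of 65 named genes with enough UMIs stayed within their interval and none changed sign. The control comparison rests on 12 cells with a receptor, and Fgd2, Pde1b and Zcchc24 on 5 UMIs each in cells with a receptor.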
